A study of Mus musculus with 6 samples.

Results

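The cytosolic and mitochondrial ribosomal protein genes were taken from RNA sequencing of mDCT15 cells, a mouse kidney cell line labelled as distal convoluted tubule. Members were the genes whose symbol is that of a ribosomal protein (Rpl, Rps, Rplp or *Rpsa* for the cytosolic and Mrpl or Mrps for the mitochondrial ribosome), without rows named as pseudogenes and without the Rps6k kinases. There were 163 members among the 20624 genes of the table, 86 cytosolic and 77 mitochondrial, and no symbol was repeated. The cytosolic members divided into 52 of the large and 34 of the small subunit, and the mitochondrial members into 48 of the large and 29 of the small subunit. The samples were 3 of wild type and 3 of *Pkd1-/-* mDCT15 cells, the latter made by CRISPR/Cas9 editing, and no treatment is listed for them. The titles name the edited cells as *Pkd1-/-*, while the genotype field calls them a knockdown, and whether they are 1 clone was not given in the sources used here. Total RNA was sequenced after depletion of ribosomal RNA, in read pairs of 42 bases a mate.

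The only measurement used was the authors' mean normalized count per gene, which is the mean over all 6 samples of counts scaled for library size. Both genotypes are pooled in it. No value of a single sample was analysed here, so levels carry no replicate error, no gene was tested between genotypes, and the depth of each library is unknown. Differences between members are therefore given as sizes only. The means of all genes summed to 16746088. The targeted gene, *Pkd1*, had a mean of 3175, a value that does not separate the edited from the wild type cells.

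Ribosomes translate mRNA, and each has a small subunit that reads the message and a large subunit that joins the amino acids. The cytosolic ribosome makes nearly all proteins of the cell. Its mRNAs typically begin with a C and a run of pyrimidines, through which growth signals that pass through mTOR and the mRNA binding protein *Larp1* set their translation. The mitochondrial ribosome makes only the few proteins encoded by mitochondrial DNA, which are core parts of the respiratory chain and ATP synthase, but its own proteins are encoded in the nucleus and imported. Genes of the cytosolic ribosomal proteins are also known for the many processed copies that their mRNAs have left in mammalian genomes, and for this reason their sequence was examined before their levels.

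For each member, every 42 base window of a representative spliced transcript was compared with the whole mouse genome (GRCm39) on both strands, and a window counted as unique when it had no exact match other than its own locus. Within coding sequence, a median of 5.94% of windows was unique over the 82 protein-coding cytosolic members, compared with 98.2% over the 77 mitochondrial members and 98.4% over all 13865 genes of the table with a coding sequence. The coding sequences of 65 cytosolic members (79.3%) were unique in fewer than 25% of windows, against 3 mitochondrial members (3.90%) and 3.06% of all these genes. In 32 cytosolic members, no coding window was unique. The median coding window of a cytosolic member had 3 further exact matches, and that of a mitochondrial member had 0.

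**Figure D1:**
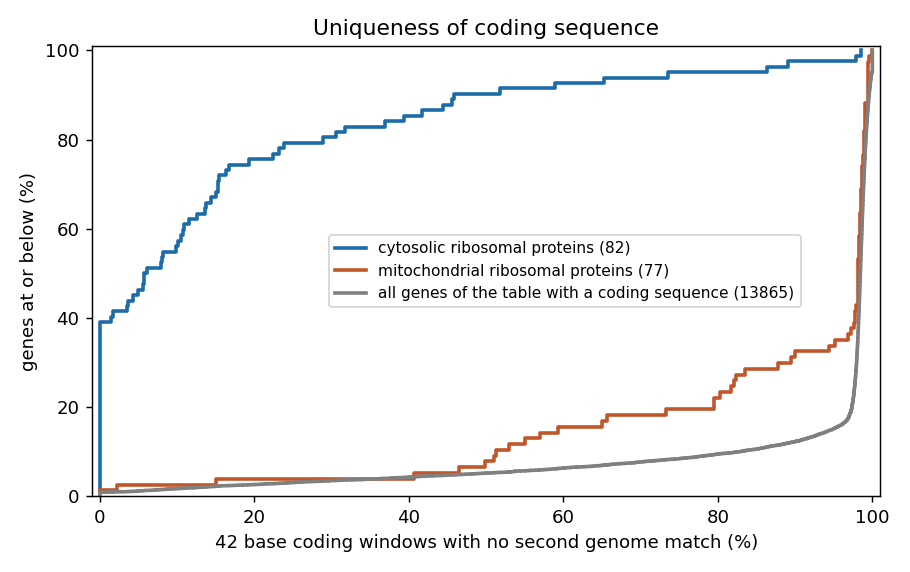
Cumulative share of genes (y axis, %) against the share of their 42 base coding windows without a second exact match in the genome (x axis, %), for the cytosolic members, the mitochondrial members and all genes with a coding sequence. The cytosolic line rises at the left, where 32 of 82 genes have no unique coding window, while the other lines rise mostly near the right edge.

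The first 120 coding bases of a trio of large subunit members show what this difference looks like. In each sequence, capitals mark a base at which a unique 42 base window begins. *Rpl8* lies on chromosome 15 (76788271 to 76790514, plus strand), *Rpl9* on chromosome 5 (65540227 to 65548804, minus strand) and *Rpl24* on chromosome 16 (55786638 to 55791798, plus strand). *Rpl8* is shown as the subunit's gene with the highest level per kb of transcript, *Rpl9* for its low share of unique windows and *Rpl24* for its low level.
Rpl8: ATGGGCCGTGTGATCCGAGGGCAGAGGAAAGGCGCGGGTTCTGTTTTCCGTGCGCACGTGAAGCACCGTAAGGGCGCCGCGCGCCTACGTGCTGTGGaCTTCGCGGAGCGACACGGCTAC
Rpl9: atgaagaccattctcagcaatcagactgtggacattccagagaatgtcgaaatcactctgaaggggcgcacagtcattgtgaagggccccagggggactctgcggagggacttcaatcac
Rpl24: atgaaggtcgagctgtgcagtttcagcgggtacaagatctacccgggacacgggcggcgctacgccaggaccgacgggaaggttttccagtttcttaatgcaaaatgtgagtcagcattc
In *Rpl8*, 119 of these 120 positions began a unique window, whereas in *Rpl9* and *Rpl24* it was 0. A 42 base read that begins at a base in lower case therefore matches a second place in the genome without a mismatch.

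**Figure D2:**
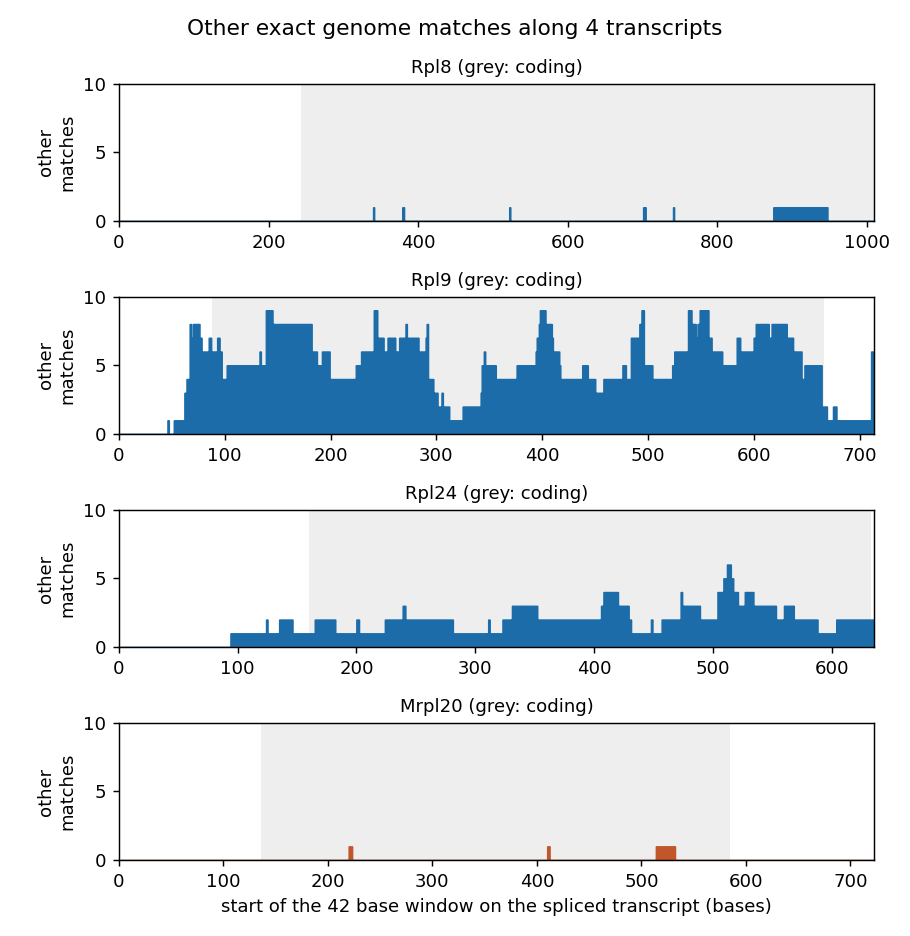
Number of other exact genome matches (y axis) of each 42 base window, by its start on the spliced transcript (x axis, bases), for Rpl8, Rpl9, Rpl24 and the mitochondrial Mrpl20, with the coding part in grey. Rpl8 and Mrpl20 have a few stretches with 1 other match, and Rpl9 has matches along nearly its whole length, with up to 9 for a window.

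Unique sequence of the cytosolic members lay more in the noncoding ends of the transcripts than in the coding part. Over whole transcripts, a median of 50.2% of windows was unique for the cytosolic and 97.4% for the mitochondrial members, and with windows of 84 bases, the length of both mates end to end, it was 62.9% and 99.4%. Among the members with the lowest shares were *Rpl7a* (5.96%), *Rpl23a* (6.12%), *Rpl36a* (6.73%) and *Rpl9* (7.0%). All of them are cytosolic. *Rpl21*, a large subunit protein picked out after its value was seen, had a median of 25 other matches per coding window. At the other end, the transcript of the muscle paralog *Rpl3l* was unique in 98.8% of windows and that of *Rpl8* in 92.1%. The lowest mitochondrial members were *Mrpl23*, with no unique coding window, *Mrps36* with 2.24% and *Mrps33* with 15%. They were not the only ones with repeated sequence. Fewer than 90% of coding windows were unique in 24 mitochondrial members (31.2%), compared with 12.2% of all genes with a coding sequence and 97.6% of cytosolic members.

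These numbers bear on how the levels below can be read. The authors counted reads with HTSeq at its default setting, which leaves out reads placed at more than one site. Of the 68 members with fewer than 25% unique coding windows, 52 nevertheless had a mean of at least 1000, so most of these genes were far from 0. How many reads each gene lost was not tested.

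At the level of whole ribosomes, cytosolic ribosomal protein mRNAs were counted more than mitochondrial ones. The 86 cytosolic members summed to 232582 normalized counts, 1.39% of all counts in the table, and the 77 mitochondrial members to 46752, or 0.279%. The sum of the cytosolic members was 4.97 times that of the mitochondrial members. The median mean normalized count was 1999 for a cytosolic member, at the 90.2 percentile of all genes, and 567 for a mitochondrial member. Over all genes, the median was 104.5, and over protein-coding genes it was 474, closer to the mitochondrial value.

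Cytosolic members had shorter transcripts, with a median of 983.5 bases compared with 1820, so the gap was wider per length. The median level was 1838 normalized counts per kb of transcript for the cytosolic and 304 for the mitochondrial ribosome, a ratio of 6.04, against 48.9 over all genes and 141.5 over protein-coding genes. Per kb of coding sequence, the medians were 4660 and 919, a ratio of 5.07. Of the cytosolic members, 75 lay above the mitochondrial median and 51 above the highest mitochondrial member per kb of transcript. Both ribosomes reached a mean of 10 in almost every member, 83 of 86 and 77 of 77, compared with 13724 of the 20624 genes. A mean of 1000 was reached by 66 cytosolic and 10 mitochondrial members, compared with 4320 of all genes and 4295 of the 13862 protein-coding genes.

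**Figure D3:**
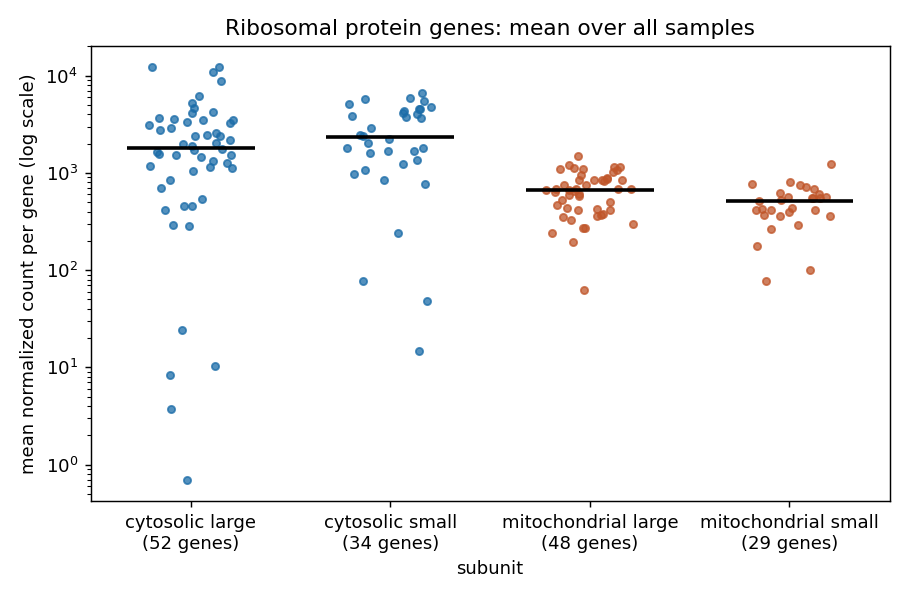
Mean normalized count of each member (y axis, log scale) by subunit (x axis); each point is 1 gene, and the black line is the median of the subunit. The cytosolic genes run from 0.685 to 12394 with a tail of low genes, and the mitochondrial genes lie between 63.0 and 1489. The spread among samples is not drawn, since the table gives 1 mean per gene.

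Most proteins of a ribosome are present once in each particle, but the counted levels of their genes were not equal. Per kb of transcript, the ratio of the 90th to the 10th percentile was 37.7 among cytosolic and 7.92 among mitochondrial members. Without the minor paralogs and the 4 processed copies, the cytosolic ratio was 18. Per kb of coding sequence, which those 4 copies do not have, the ratios were 7.84 and 4.28. The 10 highest members held 34.3% of the cytosolic and 24.8% of the mitochondrial sum. A tail of low genes was part of the cytosolic spread, and 7 cytosolic members fell below the lowest mitochondrial member in mean normalized count.

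In the cytosolic large subunit, the highest levels per kb of transcript were those of *Rpl8* with 10475, *Rplp0* with 9069 and *Rpl7* with 7499. *Rpl8* is a core protein near the centre that forms peptide bonds, and its coding sequence was unique in 89.1% of windows. *Rpl4*, a protein of the tunnel through which the new chain leaves, had the highest mean of all members, 12394, but on a longer transcript. In the P stalk, which recruits elongation factors, *Rplp0* forms the base and *Rplp1* and *Rplp2* the arms. The mean normalized counts were 12379 for *Rplp0*, 2466 for *Rplp1* and 2048 for *Rplp2*. Per kb of transcript, *Rplp1* and *Rplp2* reached 4508 and 2105, so the base was counted above both arms on either scale.

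The lowest large subunit genes per kb of transcript were *Rpl3l* with 0.483, *Rpl36al* with 4.75 and *Rpl32l* with 9.26. *Rpl3l* is a paralog of *Rpl3* restricted to heart and skeletal muscle. Its mean of 0.685 was close to the lowest of the table, although its transcript was nearly all unique. *Rpl32l* is annotated as a processed pseudogene, as are *Rpl6l*, *Rps3a2* and *Rps3a3* among the members chosen by symbol. The members with a mean under 10 were *Rpl3l*, *Rpl32l* with 3.69 and *Rpl6l* with 8.40.

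*Rpl24*, whose protein reaches from the large to the small subunit, had a mean of only 24.1. Besides having no unique coding window, 71.5% of its exon sequence was shared on the same strand with another annotated gene, *Gm28037*. *Rps10*, the low gene of the small subunit at a mean of 77.5, shared 53.6% with *Gm49804*, and *Rpl13a* at 453 shared 59.3% with *Gm45713*. None of these overlapping genes was among the genes analysed here. HTSeq at its default setting also leaves out reads that fall on more than one gene, and the part of this in the low values was not tested. These 3 genes were singled out after their values were seen.

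In the cytosolic small subunit, *Rps15* led with 12043 normalized counts per kb of transcript, followed by *Rps24* with 7216 and *Rps26* with 6702. *Rps15* sits on the head of the subunit, and *Rps26* lies where the mRNA leaves it. The lowest were the processed copies *Rps3a3* with 18.5 and *Rps3a2* with 60.3, and then *Rps10* with 87.4. The functional gene *Rps3a1* had 3834 normalized counts per kb of transcript, with a mean of 3746. The median per kb of transcript was 2229 in the small and 1342 in the large subunit, whereas per kb of coding sequence it was 4716 and 4452.

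In the mitochondrial large subunit, *Mrpl20* had the highest level per kb of transcript, 1108, followed by *Mrpl42* with 1071 and *Mrpl28* with 1004. The lowest were *Mrpl55* with 51.3, *Mrpl48* with 62.4 and *Mrpl17* with 80.4. *Mrpl17* was low only per transcript length. Its annotated transcript has 7366 bases, of which 531 are coding, and its mean of 592 was above the mitochondrial median. *Mrpl49* had the highest mitochondrial mean, 1489, and *Mrpl23* the lowest, 63.0.

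In the mitochondrial small subunit, *Mrps21* led with 1388 per kb of transcript, followed by *Mrps18a* with 637.5 and *Mrps7* with 624. The lowest were *Mrps18c* with 47.2, *Mrps36* with 69.7 and *Mrps25* with 83.8. *Mrps36* is a small subunit protein by symbol, but it is known as a part of the 2-oxoglutarate dehydrogenase complex. Its mean was 77.9. In the same way, *Mrps18a* and *Mrps30* carry a small subunit symbol but are known to sit in the large subunit, and their means were 565 and 547.5.

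**Figure D4:**
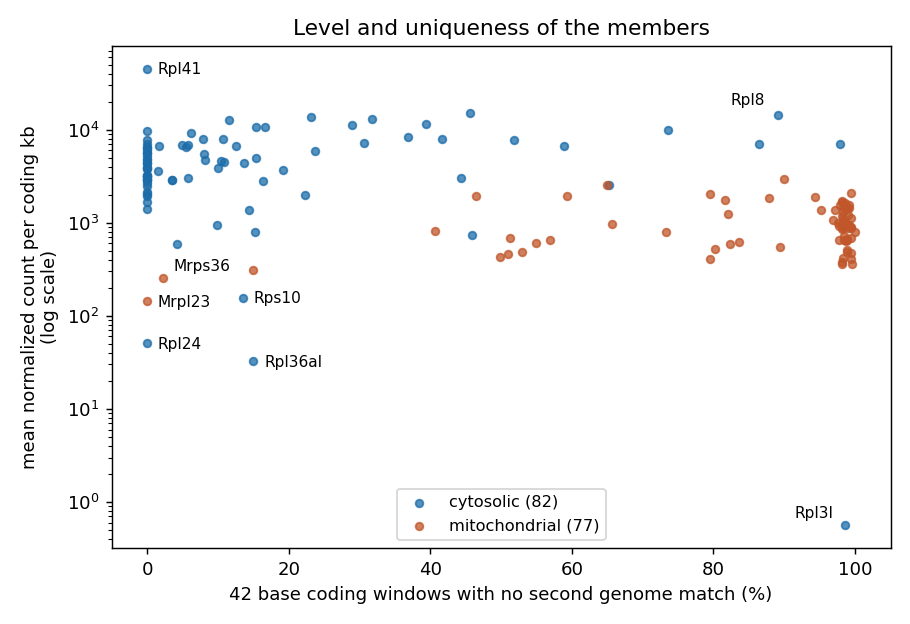
Mean normalized count per kb of coding sequence (y axis, log scale) against the share of unique 42 base coding windows (x axis, %), 1 point a gene. Cytosolic genes crowd at the left and stand above most mitochondrial genes, which crowd at the right. Rpl24 and Mrpl23 are low genes at 0%, and Rpl3l is low at 98.6%.

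Within the cytosolic ribosome, level and uniqueness were only loosely related. Across the 82 protein-coding cytosolic genes, Spearman's rho between the share of unique coding windows and the level per coding kb was 0.28, and it was 0.07 across the 77 mitochondrial genes. These are descriptions across genes of 1 pooled mean, not of independent samples. The 32 cytosolic genes with no unique coding window had a median mean normalized count of 1730 (24.1 to 4100). The 33 genes above 0 but under 25% had a median of 1811, and the 15 from 25% to under 90% had 4010 (453 to 12394). Per kb of coding sequence, the medians of these groups were 3847, 4608 and 8022. The groups overlapped widely. Several of the highest genes, *Rpl4*, *Rplp0*, *Rpl8* and *Rps15*, belonged to the last group. *Rpl41* reached 45132 per coding kb with no unique coding window. The gene lies on chromosome 10 (128383979 to 128387628, minus strand). Its coding sequence has 78 bases, the shortest of the protein-coding members. It is shown with start and stop codon in capitals, since the level per coding kb divides by this short length. Its mean was 3520. Per kb of transcript it reached 6049, rank 6 in the cytosolic large subunit.
Rpl41: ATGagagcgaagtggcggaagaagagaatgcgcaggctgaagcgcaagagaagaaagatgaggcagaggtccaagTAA

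Rows named as a pseudogene of a member held few counts in sum, but not for every parent gene. Processed copies under other symbols were not summed. The table held 129 rows named as a pseudogene of a member, for 54 parent genes, of which 3 rows belonged to mitochondrial members. Together they summed to 5490 normalized counts, which compares to 2.36% of the cytosolic sum. Only 7 of the rows reached a mean of 100. The highest were *Rpsa-ps10* with 2091, *Rps2-ps13* with 1155 and *Rpl3-ps1* with 614. Summed over the copies named after each parent, the rows reached 54.1% of the mean of *Rpsa*, 20.6% of that of *Rps2* and 17.6% of that of *Rpl3*, and 57.2% for the low *Rps10*. The mean of *Rpsa* itself was 3883, that of *Rps2* 5914 and that of *Rpl3* 3509. Reads of a parent gene and of a near-identical copy cannot be told apart with certainty, so these rows are uncertain.

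Several ribosomal proteins have a paralog. Some of these paralogs can replace the classical protein in the particle, which was not examined here. In each of the cytosolic pairs with both genes in the table, the classical gene was counted more, in mean normalized count and per kb of transcript. *Rpl3* had a mean of 3509, against 0.685 for *Rpl3l*. The means of *Rpl36a* and *Rpl36al* were 536 and 10.4, a ratio of 51.5, and per kb the ratio was 231, since the annotated transcript of *Rpl36al* is longer. *Rpl22* and *Rpl22l1* had means of 2591 and 291, and per kb they differed by 7.75 times. *Rpl7* and *Rpl7l1* had means of 8722 and 1887, and per kb they differed by 5.30 times. *Rps27* and *Rps27l* were nearest in level, with means of 2440 and 766 and a ratio of 3.21 per kb. *Rpl36a* and *Rpl36al* are the closest, with 87.9% identical coding bases, and 282 of 321 aligned bases were equal. Uniqueness also differed within the pairs. *Rpl22* was unique in 59.0% of coding windows and *Rpl22l1* in 15.2%, whereas in the other cytosolic pairs the paralog had the larger share. *Rpl36al* shared 15.2% of its exon sequence with *Gm49383*. The part of lost reads in these ratios was not tested. In the mitochondrial trio, *Mrps18a* had a mean of 565, *Mrps18b* of 371 and *Mrps18c* of 176. Their coding sequences were 39.5% to 47.0% identical. *Rpl10*, *Rpl26*, *Rpl39* and *Rps4x* were counted with 4100, 417, 1044 and 5483, and no paralog of theirs was analysed here.

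*Rps27* and *Rps27l*, a target of p53, show how far a paralog with the same role can drift in bases. The coding sequences below have 255 bases each, with capitals at the 61 positions where they differ.
Rps27: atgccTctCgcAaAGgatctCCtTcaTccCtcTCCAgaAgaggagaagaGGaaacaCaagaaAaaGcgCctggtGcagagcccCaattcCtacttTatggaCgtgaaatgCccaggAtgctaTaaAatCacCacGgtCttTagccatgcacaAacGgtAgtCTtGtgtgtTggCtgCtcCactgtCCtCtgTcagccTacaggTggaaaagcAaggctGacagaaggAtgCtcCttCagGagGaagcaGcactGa
Rps27l: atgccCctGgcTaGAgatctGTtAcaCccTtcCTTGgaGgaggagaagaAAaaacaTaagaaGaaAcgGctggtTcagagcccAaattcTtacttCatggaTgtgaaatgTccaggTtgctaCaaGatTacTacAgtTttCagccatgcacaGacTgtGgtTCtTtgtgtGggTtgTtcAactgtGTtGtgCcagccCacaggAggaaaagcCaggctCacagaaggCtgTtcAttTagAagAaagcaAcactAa
No unique coding window was found in *Rps27*, while 44.4% were unique in *Rps27l*. The differences between this pair are spread along the sequence, and the matches of *Rps27* are to other places in the genome.

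Sequence at the start of transcription was compared next, as an annotated feature that the choice of members did not use. Promoters were read from GRCm39 as 250 bases before to 50 bases after the start of the representative transcript. A C followed by at least 4 pyrimidines, beginning within 5 bases of the annotated start, was present in 21 of 86 cytosolic (24.4%) and 13 of 77 mitochondrial members (16.9%), compared with 18.5% of 20121 genes. With protein-coding genes only, the shares were 25.6%, 16.9% and 20.1% in the same order. Within the cytosolic members the run was found in 14 of 34 of the small subunit (41.2%) and in 7 of 52 of the large subunit (13.5%). Within 15 bases of the start, the shares were 51.2%, 45.5% and 40.6%, or 51.2%, 45.5% and 42.7% with protein-coding genes only. The subunits no longer stood apart there, with 18 of 34 small (52.9%) and 26 of 52 large subunit genes (50%). The share near the annotated start was thus lower than the known start of these mRNAs would give, and the annotated starts were not checked against reads.

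The windows below are those of the gene with the highest level per kb in each subunit. Each has 30 bases that begin 10 bases before the annotated start, and capitals mark the C and pyrimidines where the run lies within 5 bases of that start. They are *Rpl8* at chr15:76788261-76788290 (plus), *Rps15* at chr10:80128239-80128268 (plus), *Mrpl20* at chr4:155887968-155887997 (plus) and *Mrps21* at chr3:95778812-95778841 (minus).
Rpl8: aggctgcgttgacccgtctatttcctcttt
Rps15: aggcgggCCCTCCCggcagagctcgcgata
Mrpl20: gcggacggtctggcacaacggaactgaggg
Mrps21: gcttcCTCCCgtcgcgggactccgtagctt
In *Rps15* the run spans the annotated start, and in *Mrps21* it lies wholly before that start. In *Rpl8* a pyrimidine stretch lies further downstream of the annotated start.

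Among 5 motifs searched on both strands of the 300 base windows, CCGGAAG, the core letters bound by ETS family factors such as *Gabpa*, was found in 27.9% of cytosolic and 29.9% of mitochondrial members, compared with 11.4% of all genes and 14.3% of protein-coding genes. ATGGCGG, which contains the core letters bound by *Yy1*, was present in 14.0%, 9.09% and 5.22% of cytosolic members, mitochondrial members and all genes. For TATAAA the shares were 14.0%, 10.4% and 11.3%, and for GGGCGG they were 48.8%, 42.9% and 45.3%. With protein-coding genes only, in the same order, ATGGCGG was found in 11.0%, 9.09% and 5.40%. On that basis the shares were 13.4%, 10.4% and 8.30% for TATAAA. For GGGCGG they were 51.2%, 42.9% and 56.5%, so both sets of members lay below the protein-coding share. The palindrome bound by *Nrf1* was found in 0 of 86 and 1 of 77 members and in 1.27% of all genes. A match describes letters in a window and does not show binding.

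Genes that build the ribosomes differed in the same direction, with a median per kb of transcript of 331 for cytosolic and 136 for mitochondrial assembly genes. Over protein-coding genes it was 141.5. Of 10 ribosomal proteins under other names or with a second function, *Rack1*, a scaffold on the small subunit, was highest with a mean of 10602. A mean of at least 100 was reached by 10382 of the 20624 genes and by 10111 of the 13862 protein-coding genes, whose median was 474. All 30 genes of cytosolic ribosome assembly had a mean of at least 100, with a median of 1320. They ranged from *Ncl*, nucleolin, with 14846 to *Nle1*, a late factor of the large subunit, with 190. Of 20 listed symbols of mitochondrial assembly genes, *Gtpbp7* is another name of *Mtg1*. The 19 genes were all in the table with a mean of at least 100, and had a median of 290. They ranged from the RNA helicase *Dhx30* with 1537 to the GTPase *Mtg1* with 137. Of 13 genes that control growth or transcription of these sets, *Larp1* was highest with 4832 and the coactivator *Ppargc1b* lowest with 30.9. Apart from the first medians, which are per kb, these values are mean normalized counts per gene.

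The labelled cell type was checked with marker genes. Of 16 genes of the distal convoluted tubule, 9 were in the table, from *Wnk1* with a mean of 8468 to *Klhl3* with 5.70. The other 7 had no row among the genes analysed here, and the defining markers *Slc12a3* and *Pvalb* are among them. The magnesium channel gene *Trpm6* had a mean of 29.6. *Lrp2*, a marker of the proximal tubule, had 8826, while *Slc34a1* of the same segment had 2.04. Of the 6 listed genes of other nephron segments, *Umod*, *Slc12a1*, *Aqp2* and *Nphs1* had no row among the genes analysed here. Of 4 epithelial markers, *Epcam* had 115 and *Krt8* 0.980, and *Cdh1* and *Krt18* had no row among the genes analysed here. The 5 markers of stromal, endothelial and immune cells had a median of 5.36, but their means were uneven. *Col1a1* with 201 lay above *Epcam*, and *Acta2* with 110 lay near it. *Ptprc*, *Pecam1* and *Pdgfrb* had 5.36, 4.68 and 4.48. The highest rows of the table were the noncoding genes *Gm26917* with 6.29%, *Gm42418* with 1.79% and *Rn7sk* with 0.906% of all counts, and the shares of the ribosomal proteins given above are relative to a sum that includes them.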

How the data were processed

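RNA of 3 *Pkd1-/-* and 3 wild type samples was sequenced by the authors, who trimmed reads with Trim Galore 0.4.5, mapped them with STAR 2.7.5a to GRCm39 (Ensembl annotation), and used HTSeq 0.11.0 for counts per gene and DESeq2 1.22.0 (R 3.5.3) for normalization and for their own comparison. The deposited mean normalized count is a signal, the authors' mean over all samples of counts divided by size factors. The methods state a minimum count per sample, yet the lowest mean was 0.618. The 5 other columns hold the authors' own comparison (log2 fold change, its error, statistic, p-value and adjusted p-value) and were not used. Values per sample were not analysed here, so the planned edgeR test was not run and samples were not compared by group. Depth per sample is unknown.

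Of all genes, 20122 (97.6%) were matched by identifier to GENCODE M39 on GRCm39. This annotation is later than that of the authors, so overlaps and transcript ends may differ. The representative transcript was the principal protein-coding one with a consensus coding sequence, otherwise the canonical one. Lengths, 42 base windows, paralog alignments and promoters were computed with Python 3.11.15, numpy 2.4.6, pandas 2.3.3, numba 0.67.0 and Biopython 1.88, and the window search was tested on simulated sequence. Exact matches do not describe mapping with mismatches or with both mates. Sequences printed come from GRCm39. Named genes were, by rule, the 3 highest and 3 lowest per kb in each subunit, paralog pairs, P stalk genes, members under a mean of 10, the 5 least unique transcripts and the extremes of each list, and all other genes named were chosen after their values were seen. Members and lists were chosen with earlier results of these data known. Some genes that this rule names are not reported here.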

Additional observations from a re-analysis of the deposited data

How the results depend on the processing

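Values below are for the cytosolic and then the mitochondrial members. Without replicate values, a value counted as moved when it differed at 3 significant digits. Of 48 alternatives, 12 did not move, and in each alternative for the level the cytosolic median was above the mitochondrial. The median per kb was 1838 and 304. It became 675 and 119.8 with all exons joined, 3385 and 339 per unique window, 1905 and 307 with ribosomal proteins under other names, and 1999 and 567 without length. Cytosolic values alone moved to 1986 with a minimum mean of 10 and to 2004 without minor paralogs. Alternatives added after the data were seen gave 4660 and 919 per coding length, 36271 and 1094 per unique coding window, 2105 (cytosolic) without minor paralogs and the 4 processed copies, 1866 (cytosolic) with pseudogene rows added, and 288 (mitochondrial) on canonical transcripts. The value per unique coding window divides all counts of a gene, noncoding ends included, by its unique coding windows only. It is therefore high where such windows are few, and it has no value for the 32 cytosolic members without any. The share of 1.39% and 0.279% became 1.37% (cytosolic) without minor paralogs, 1.42% (cytosolic) with pseudogene rows, 1.53% and 0.307% without the 3 highest rows, and 4.58% and 0.560% per kb. The percentile ratio of 37.7 and 7.92 became 107 and 6.29 per unique window, 18.5 (cytosolic) with a minimum mean of 10, 22.3 (cytosolic) without minor paralogs, 18 (cytosolic) without these and the copies, and 7.84 and 4.28 per coding length. Unique windows were 50.2% and 97.4%, or 62.9% and 99.4% at 84 bases and 5.94% and 98.2% in coding sequence. The start run was found in 24.4% and 16.9%, or 51.2% and 45.5% within 15 bases. The cause of these shifts was not tested beyond their construction.

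No paired analysis was possible because the table holds 1 pooled mean per gene and no value of a single sample. For the same reason the replicate block, DESeq2 size factors and leaving out a replicate were not run.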
